A study of Rattus norvegicus with 18 samples.

Results

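Ret and Gfra1 encode the receptor complex for GDNF, the glial cell line-derived neurotrophic factor, and were described in rat testis cells by every probe set annotated to either gene on 2 types of oligonucleotide array. The pair is 2 of 13807 genes that the arrays name. Array type A held 5 such probe sets, 3 for Ret and 2 for Gfra1, type B held 0, and 31042 probe sets were counted over both types. A probe set is a group of short probes that together give 1 signal for a transcript. Of the 5 probe sets, 4 reached a signal of at least 100 in a library, and the third Ret probe set stayed near or under 50 throughout.

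The 9 libraries came from testes of 22-day-old Rattus norvegicus, with 1 array of each type per library and no replicates. The labels give 7 of them as germ cells, namely the fraction binding laminin, a protein of basement membranes, the fraction left unbound, cultures on STO feeders sampled on days 1, 5, 10 and 20, and a culture on MSC1 feeders sampled on day 20. STO cells are mouse fibroblasts and MSC1 cells come from mouse Sertoli cells, so feeder RNA, where any was carried over, would be mouse RNA read by rat probes. The other 2 libraries were tubular somatic cells and interstitial cells of the testis. Both laminin fractions are labelled as cultured with no day given, and no strain, genotype or number of animals is named. Genes of germ cells in general, 5 in number, summed to a signal of 12696.7 to 31837.1 in the germ cell libraries and to 726.4 and 665.4 in the tubular and interstitial ones, and 11 Sertoli cell genes summed to 14161.5 in tubular somatic cells.

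GDNF binds to the GFRA1 protein, which is anchored in the membrane by a lipid and has no kinase of its own. The GDNF and GFRA1 pair then brings together RET, a receptor tyrosine kinase, which passes the signal on through adaptor proteins to the PI3K-AKT, RAS-ERK and Src family kinase pathways. In the testis, Sertoli cells and peritubular cells make GDNF, and undifferentiated spermatogonia, the population that includes the stem cells, carry the receptor and depend on it to keep renewing themselves.

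Ret (gene 24716) lies on rat chromosome 4 from 152998344 to 153040556, and Gfra1 (gene 25454) on chromosome 1 from 267325297 to 267557037, both in the GRCr8 assembly. The promoter windows of the RefSeq table, from 250 bases before to 50 bases after a start site, are shown because the signals of these genes rose and fell in the same libraries. Both windows are on the minus strand of GRCr8, at chr4:153040507-153040806 for Ret and at chr1:267555762-267556061 for Gfra1. The start site of the Ret window is the 5' end of the gene, whereas that of the Gfra1 window lies 1226 bases inside the annotated 5' end. Capitals mark matches to the GC box GGGCGG on either strand.
Ret promoter: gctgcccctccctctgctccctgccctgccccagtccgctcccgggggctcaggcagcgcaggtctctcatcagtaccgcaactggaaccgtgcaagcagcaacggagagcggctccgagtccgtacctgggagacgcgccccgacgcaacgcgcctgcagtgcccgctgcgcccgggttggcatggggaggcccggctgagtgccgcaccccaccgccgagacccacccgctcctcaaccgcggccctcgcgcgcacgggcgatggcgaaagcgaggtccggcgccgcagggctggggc
Gfra1 promoter: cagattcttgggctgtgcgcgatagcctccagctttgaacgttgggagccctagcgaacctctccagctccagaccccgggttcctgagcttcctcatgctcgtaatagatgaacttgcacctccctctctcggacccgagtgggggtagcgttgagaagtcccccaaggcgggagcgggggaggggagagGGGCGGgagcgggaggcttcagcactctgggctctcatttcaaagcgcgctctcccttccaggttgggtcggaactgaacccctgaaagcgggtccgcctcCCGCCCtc
The Ret window was 74.0% G and C with 35 CpG dinucleotides, and 96.0% of 33469 rat promoter windows of the same length had a lower G and C share. The Gfra1 window was 63.0% G and C with 19 CpG dinucleotides, and the median window had 51.67% and 7.0. The Gfra1 window held 2 GC boxes, with first bases 59 bases before the start site of the window and at base 43 after it, and the Ret window held 0. GC boxes were found in 33.06% of all windows. Neither window held TATAAA (in 14.22% of windows), CCAAT (37.49%), the ETS core CCGGAA (14.95%) or the E box CACGTG (6.42%), each searched on both strands. The searched motifs did not overlap one another in these windows, and a match is a description of letters, not of binding.

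The signals below are linear values that the authors had scaled on each array to an average of 250. Signals under a floor of 50 were raised to 50 before a fold was taken, and a fold against such a signal is written as at least that many fold. A call required a fold of 3 or more and a signal of at least 250 on the brighter side. With 1 library per population there is no test between populations. Error was taken from 100 probe sets that both array types hold. It is the standard deviation of the difference in log2 fold between types, divided by the square root of 2. For the 47 of them whose type A signals all stayed under 1000, closer to Ret and Gfra1, it averaged 0.29. This is the error of a log2 fold between 2 libraries on 1 array type, so that 2 standard deviations were a 1.49-fold difference. It covers the arrays and not animals, cultures or amplification. On type A, 59.45% to 70.38% of probe sets reached 50, and scale factors of 0.391 to 1.512 put the floor at 33.1 to 127.9 before scaling.

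Ret, the signalling subunit, was read best by probe set 1370989_at, the brightest of its 3. Its signal was 706.8 in laminin-binding and 87.3 in laminin non-binding germ cells. On STO feeders it was 1729.5, 767.9, 317.5 and 48.6 on days 1, 5, 10 and 20, and on MSC1 feeders it was 1144.7 on day 20. In the tubular somatic library it was 1.9 and in the interstitial library 1.5. Ret was therefore above the floor in 6 of 9 libraries, all of them germ cells, with STO day 1 the brightest and the single germ cell library under the floor being STO day 20. On STO day 1 it exceeded 97.1% of type A probe sets, on MSC1 94.8%, on STO day 20 37.8%, and in the tubular and interstitial libraries 2.3% and 1.9%.

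In order of level by this probe set, STO day 1 was 1.51-fold above MSC1 day 20 and MSC1 day 20 was 1.49-fold above STO day 5, gaps of 0.60 and 0.58 in log2 that lay just beyond 2 standard deviations of 0.57. STO day 5 and laminin-binding cells differed by 1.09-fold, within that error. Below them followed STO day 10, at 2.23-fold less than laminin-binding cells, then non-binding cells at 3.64-fold less than STO day 10. STO day 20 stood at least 1.75-fold under non-binding cells. Both somatic libraries were under the floor, where levels have no order.

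The second Ret probe set, 1371112_at, was designed on another transcript sequence of Ret. Its signal was 538.7 on MSC1, 357.0 in laminin-binding cells, 324.4 on STO day 1, 123.9 on day 10, 108.5 on day 5, 42.3 on day 20, 41.5 in non-binding cells, 9.3 in tubular somatic cells and 5.5 in interstitial cells. The same 4 libraries were under the floor or among the lowest as by the first probe set, but the leading library was MSC1 day 20 in place of STO day 1. Here MSC1 was 1.66-fold above STO day 1, whereas by the first probe set it was 1.51-fold below it, so the order of these 2 libraries is not settled by the arrays. STO days 5 and 10 differed by 1.14-fold by this probe set and by 2.42-fold by the first.

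The third Ret probe set, 1388208_a_at, carries the same source sequence accession as the second. Its signal lay between 3.4 and 51.6, reached the floor on STO day 1 alone, and gave no usable fold.

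Gfra1, the GDNF-binding subunit, was read best by probe set 1387007_at. Its signal was 375.7 on MSC1, 328.4, 300.0, 149.2 and 58.6 on STO days 1, 5, 10 and 20, 186.3 in laminin-binding cells, 92.0 in non-binding cells, 66.7 in interstitial cells and 65.7 in tubular somatic cells. All 9 libraries were above the floor, and the lowest 3, STO day 20 and both somatic libraries, differed by at most 1.12-fold between neighbours. MSC1, STO day 1 and STO day 5 led, with gaps of 1.14-fold and 1.09-fold that lay within the array error. Laminin-binding cells were 1.61-fold below STO day 5, a log2 gap of 0.69. That gap was beyond the averaged error but within 2 standard deviations for this pair of libraries (0.39 for 1). Laminin-binding cells were 1.25-fold above STO day 10, within the array error.

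The second Gfra1 probe set, 1367954_at, was dimmer but had a lower base. It read 247.2, 168.6, 52.1 and 26.8 on STO days 1, 5, 10 and 20, 220.8 on MSC1, 205.6 in laminin-binding cells, 19.7 in non-binding cells, 15.0 in tubular somatic cells and 9.0 in interstitial cells. The 4 brightest libraries were the same as by the first probe set, at 168.6 to 247.2 with neighbours within 1.22-fold, and the next, STO day 10, was 3.24-fold below the lowest of them. Because its highest signal was 247.2, this probe set could not reach the minimum of 250 that a call requires. The signal of about 60 that the first Gfra1 probe set kept in both somatic libraries was not seen by the second.

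**Figure D1:**
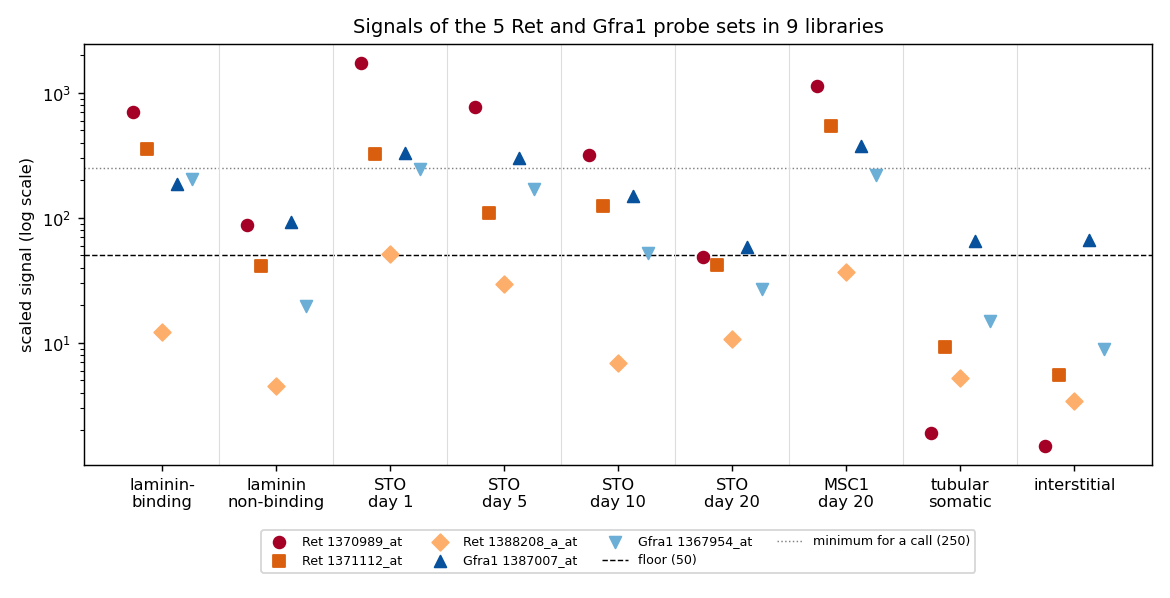
Scaled signal on a log axis of the 3 Ret and 2 Gfra1 probe sets in the 9 libraries, each point being 1 array, with the floor of 50 dashed and the minimum for a call of 250 dotted. Laminin-binding cells, STO days 1 and 5 and MSC1 day 20 are high by the 2 brighter probe sets of each gene except 1371112_at on STO day 5 (108.5), and on STO day 20 the highest of the 5 signals is 58.6.

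Laminin-binding germ cells carried more of both receptor transcripts than non-binding cells. Ret was 8.10-fold higher by its first probe set (706.8 against 87.3) and at least 7.14-fold higher by its second (357.0 against 41.5). Gfra1 was 2.02-fold higher by its first probe set (186.3 against 92.0), under the fold of 3, and at least 4.11-fold higher by its second (205.6 against 19.7), under the minimum of 250. Thus 2 of 5 probe sets were called higher, where 3.65% of all 31042 were. The standard deviation of array folds in this comparison was 0.25 for dim probe sets, against log2 folds of 3.02 for Ret and 1.02 for Gfra1. Fewer cells that express a gene and less of its RNA per cell cannot be told apart in these libraries.

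Ret stood high among all probe sets in this comparison, with 89 of 31042 showing a larger fold in the same direction, while 4249 exceeded the 1.02 of Gfra1. The median log2 fold of all measured type A probe sets was 0.20 here and between -0.09 and 0.13 with other scalings, and Ret ranged from 6.38-fold to 8.10-fold and Gfra1 from 1.60-fold to 2.02-fold over those scalings. Markers of later germ cells moved with the sort, as the summed signal of 6 meiotic prophase genes was 2757.4 in binding and 13818.2 in non-binding cells and that of 6 pachytene genes was 877.8 and 13112.0. Sertoli markers differed too, with summed signals of 2118.9 and 1207.6 over 11 genes, against 14161.5 in tubular somatic cells, where Ret was under the floor.

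On STO feeders Ret and Gfra1 both fell, and on day 20 they read no higher than in non-binding cells by the first probe sets. From day 1 to day 20 Ret fell at least 34.6-fold by its first probe set and at least 6.49-fold by its second. Gfra1 fell 5.60-fold by its first probe set and was at least 4.94-fold lower by its second. In this comparison 3 of 5 probe sets were called lower, against 2.64% of all. Only 2 of 31042 probe sets showed a larger fall than the first Ret probe set, and 247 showed a larger one than the first Gfra1 probe set. The median log2 fold of measured type A probe sets was -0.06, and -0.02 to 0.11 with other scalings, over which Ret fell at least 31.2-fold to at least 34.6-fold and Gfra1 4.88-fold to 5.60-fold.

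Ret was lower at each step of the culture. Day 5 read 2.25-fold below day 1, not called (0 of 5 probe sets, 0.206% of all), and day 10 read 2.42-fold below day 5, again with 0 of 5 called (0.264%). From day 10 to day 20 it fell at least 6.35-fold, the 1 of 5 probe sets called in that step (1.27%). On day 10 Ret was 5.45-fold below day 1, a call made for 0.457% of probe sets, and 20 of 31042 had fallen further. For Gfra1 day 5 lay 1.09-fold below day 1, within the array error, day 10 then lay 2.01-fold and day 20 2.55-fold lower, each against the sampling before. None of these steps of Gfra1 was called, and by its second probe set they were 1.47-fold, 3.24-fold and at least 1.04-fold. The second Ret probe set read 2.99-fold lower on day 5, not called, read 1.14-fold higher on day 10 and then at least 2.48-fold lower on day 20.

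A trend over the 4 STO libraries was fitted with limma on log2 signal, with Benjamini-Hochberg adjustment over the 16066 probe sets of mean signal 100 or more. Against log2 culture day the slope of Ret was -1.09 with a standard error of 0.19 (adjusted p = 0.355) and that of Gfra1 was -0.53 with a standard error of 0.16 (adjusted p = 0.432). No probe set of either gene passed 0.05, nor did any other, with 0 called, while 908 falling and 592 rising probe sets had an unadjusted p under 0.05. Against culture day on a linear scale Ret fell by 0.27 log2 units per day with a standard error of 0.022 (adjusted p = 0.000136), the smallest p of all, and Gfra1 fell by 0.14 with a standard error of 0.025 (adjusted p = 0.00783). The linear fit called 5.21% of probe sets as falling and 3.66% as rising, and the second probe sets of Ret and Gfra1 were among them with adjusted p-values of 0.0267 and 0.0324. The linear slopes correspond to a loss of 1 log2 unit every 3.74 days by the first and every 8.16 days by the second Ret probe set, and every 7.22 and 7.95 days by those of Gfra1, so that a faster loss of Ret was read by its first probe set and not by its second.

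The call on log2 day also turned on single libraries. Without day 1 the adjusted p of limma was 0.000204 for Ret and 0.00799 for Gfra1, without day 10 it was 0.0290 for Ret, and without day 20 it was 0.000328 for Ret and 1 for Gfra1. Without day 5 no probe set passed. These fits have 2 residual degrees of freedom, or 1 with a day left out, and their spread is the departure from a line and not that of repeated cultures.

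**Figure D2:**
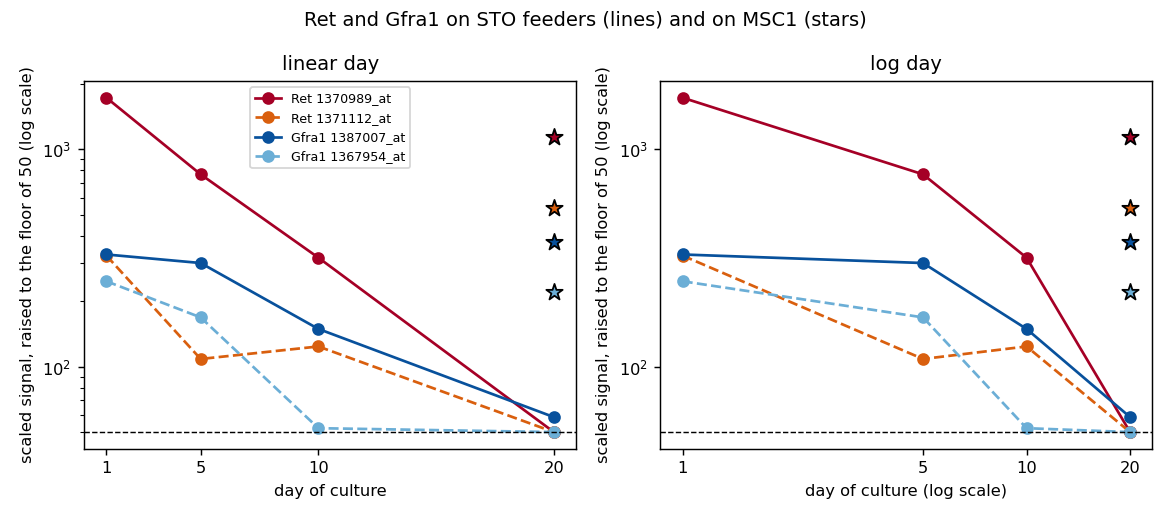
Signal raised to 50, on a log axis, of the first (solid) and second (dashed) probe sets of Ret and Gfra1 against day on STO feeders, with day linear on the left and on a log scale on the right, and stars for MSC1 on day 20. The first Ret probe set drops from 1729.5 to the floor close to a straight line in linear day, and all stars lie above the STO values of day 20.

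Other transcripts moved over the same culture. The summed signal of 6 meiotic prophase genes was 3679.7 on day 1 and 16781.2 on day 20, and all 6 were called higher. Of 8 measured fibroblast and matrix genes, 4 were called higher, namely Lox (at least 14.6-fold), Col1a2 (7.39-fold), Col1a1 (4.06-fold) and Col3a1 (3.72-fold), and Fbn1 was 3.20-fold lower, with a median log2 fold of 1.60 and summed signals over 10 genes of 4177.7 and 5670.7. Of 4 measured Leydig cell genes, Star (6.47-fold) and Hsd11b1 (at least 5.16-fold) were called higher and 2 were not called. Of 5 measured macrophage genes, Lyz2 (6.72-fold) and Spp1 (3.42-fold) were called higher and 3 were not called, with a median log2 fold of 0.43. Cyp11a1 (57.9 and 50.3), C1qa (60.8 and 42.1) and Cd14 (54.8 and 44.4) read lower on day 20 than on day 1. Summed signals were 213.3 and 815.2 for Leydig and 343.5 and 926.6 for macrophage genes. In these sums Star gave 62.5 and 404.1, and Lyz2 gave 65.1 and 437.5. General germ cell genes, 5 in number, summed to 29632.5 on day 1 and 22876.7 on day 20. The 3' to 5' signal ratio of Gapdh, which rises with shortened RNA, was 20.7, 20.6, 29.7 and 14.7 on days 1, 5, 10 and 20 on type A, and that of actin was 71.2, 26.8, 94.3 and 37.0. The part of these in the fall of Ret and Gfra1 was not tested.

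Germ cells on MSC1 feeders carried both receptor transcripts on day 20, when cells on STO read low. Ret was at least 22.9-fold higher on MSC1 than on STO by its first probe set (1144.7 against 48.6) and at least 10.8-fold by its second (538.7 against 42.3). Gfra1 was 6.41-fold higher by its first probe set (375.7 against 58.6) and at least 4.42-fold by its second (220.8 against 26.8). Again 3 of 5 probe sets were called, here as higher, against 2.83% of all, and 7 of 31042 had a larger fold than the first Ret probe set and 191 a larger one than the first Gfra1 probe set. The STO day 20 library is also one side of the fall over culture, and the folds share it.

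Against STO day 1, MSC1 day 20 had 0 of 5 probe sets called (0.763% of all were higher and 0.599% lower). Ret was 1.51-fold lower by its first and 1.66-fold higher by its second probe set, and Gfra1 was 1.14-fold higher and 1.12-fold lower. Against laminin-binding cells MSC1 read higher by all 4 probe sets, at 1.62-fold and 1.51-fold for Ret and 2.02-fold and 1.07-fold for Gfra1, none of them called (2.38% of all were). The second probe sets of both genes, at 0.59 and 0.10 in log2, lay within 2 standard deviations of the array error for this pair (0.32 for 1). The first Ret probe set, at 0.70, lay just beyond. The median log2 fold of measured type A probe sets on MSC1 over STO day 20 was 0.22, and it was between -0.19 and 0.12 with other scalings, over which Ret was at least 17.1-fold to at least 23.6-fold and Gfra1 4.65-fold to 6.41-fold higher.

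Meiotic prophase genes summed to 4403.6 on MSC1, close to the 3679.7 of STO day 1, and to 16781.2 on STO day 20. Fibroblast and matrix genes summed to 6113.4 on MSC1 and 5670.7 on STO day 20, and 11 Sertoli genes to 2038.8 and 949.9. Of 9 measured Sertoli genes, Cldn11 was called, 11.1-fold higher on MSC1, and 8 were not called. Leydig genes summed to 325.7 and 815.2. Of 4 measured, Star (3.54-fold) and Hsd11b1 (at least 5.16-fold) were called lower on MSC1 and 2 were not called. Macrophage genes summed to 1742.0 and 926.6, with none of 6 measured called. In tubular somatic cells, with a Sertoli sum of 14161.5, Ret read 1.9 and Gfra1 65.7, and in interstitial cells, with a fibroblast and matrix sum of 27552.1, they read 1.5 and 66.7. The Gapdh 3' to 5' ratio on type A was 27.4 on MSC1 and 14.7 on STO day 20, and that of actin went the other way, at 25.8 and 37.0. A part of mouse feeder RNA in these signals was not tested.

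Both somatic libraries were low in receptor transcripts. Laminin-binding cells exceeded them in Ret at least 14.1-fold by the first probe set and at least 7.14-fold by the second, in either comparison. Gfra1 was 2.84-fold higher than in tubular somatic and 2.79-fold higher than in interstitial cells by its first probe set, and at least 4.11-fold higher than in either by its second. In each comparison 2 of 5 probe sets were called, both of Ret, against 4.79% of all over tubular somatic and 5.77% over interstitial cells. By the first probe sets, non-binding cells exceeded both somatic libraries at least 1.75-fold in Ret, and in Gfra1 they read 1.40-fold and 1.38-fold higher. The second probe set of each gene was under the floor in non-binding cells and in both somatic libraries, and gave no fold.

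Cells on STO day 1 carried at least as much of each transcript as laminin-binding cells by the first probe sets. Ret was 2.45-fold and Gfra1 1.76-fold higher on STO day 1, beyond 2 standard deviations of the array error (0.33 for 1), but 0 of 5 probe sets were called (1.45% of all were higher and 1.24% lower). The second probe sets gave 1.10-fold lower for Ret and 1.20-fold higher for Gfra1, within the array error. The Gapdh 3' to 5' ratio on type A was 20.7 on STO day 1 and 7.07 in laminin-binding cells, and that of actin was 71.2 and 21.6. A part of this difference in the folds was not tested.

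By the first probe sets Ret had larger folds than Gfra1 in the 3 main comparisons, but not for MSC1 over laminin-binding cells (0.70 and 1.01 in log2). The log2 fold of Ret minus that of Gfra1 came to 2.0 in the laminin comparison, and with signals under 50 raised to 50 it came to -2.63 in the STO comparison of day 20 with day 1 and 1.84 in that of MSC1 with STO, by the first probe sets. The last 2 differences are bounds, since Ret was under the floor on STO day 20, and by the second probe sets the folds of both genes were bounds in all 3. Whether the probe sets respond alike to a given change in RNA was not tested.

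**Figure D3:**
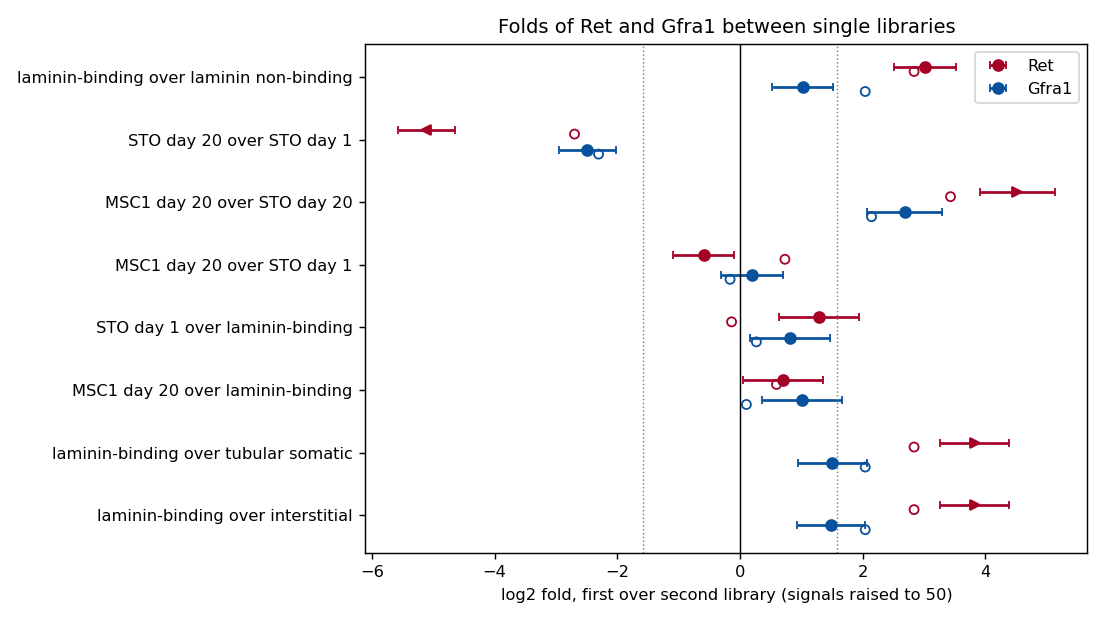
Log2 folds between single libraries for the first probe sets of Ret and Gfra1 (filled) with bars of 2 standard deviations of the array error for dim probe sets, and other probe sets that reached 100 in either library (open). Triangles are bounds against a signal under 50, as are all open circles beyond the dotted lines, and dotted lines mark 3-fold, and Ret at 3.02, -5.11 and 4.52 lies further from 0 than Gfra1 at 1.02, -2.49 and 2.68 for laminin binding, STO day 20 over day 1 and MSC1 over STO, with bars that do not overlap.

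Across the 9 libraries the first probe sets of Ret and Gfra1 followed each other closely, with a Pearson correlation of log2 signal of 0.98 and a Spearman correlation of 0.97. Among 4909 type A probe sets of other genes that reached 250 and varied at least 3-fold, Gfra1 was the closest to Ret, and Ret was the closest to Gfra1. Over the 7 germ cell libraries alone the correlation was 0.97, Gfra1 ranked 18 for Ret and Ret ranked 11 for Gfra1. The 2 probe sets of Gfra1 correlated at 0.90 and the first 2 of Ret at 0.91. The second probe sets of both genes correlated with each other at 0.89, where Gfra1 ranked 20 for Ret and Ret 18 for Gfra1. With the second Ret and the first Gfra1 probe set the correlation was 0.87, and Ret ranked 99 for Gfra1. These are descriptions over libraries that share array scaling and differ in several ways at once.

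The closest genes to Ret after Gfra1 were Sox13 at 0.97, a transcription factor gene, Egr4 at 0.97, a zinc finger transcription factor gene of the early growth response family, and Thbs4 at 0.97, which encodes a secreted thrombospondin. Next came Snap91 at 0.97, a clathrin assembly protein gene, Dbndd2 at 0.97, Nr1d1 at 0.97, a circadian nuclear receptor gene, and Pafah1b3 at 0.97. For Gfra1 they were Ret, Sox13 at 0.98, Thbs4 at 0.96, LOC100911534 at 0.96, Elovl6 at 0.96, a fatty acid elongase gene, Wnk2 at 0.96, a kinase gene, Lama5 at 0.96, which encodes a laminin chain, and Lrwd1 at 0.95. Egr4 read 890.9 in laminin-binding cells, 822.3 on STO day 1, 690.4 on MSC1, 36.6 on STO day 20 and 4.4 and 1.4 in the tubular and interstitial libraries. Elovl6 had the same high and low feeder libraries (756.8 on STO day 1, 931.2 on MSC1, 14.3 on STO day 20), but read 125.2 in laminin-binding cells. Sox13 and Thbs4 were in both lists.

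**Figure D4:**
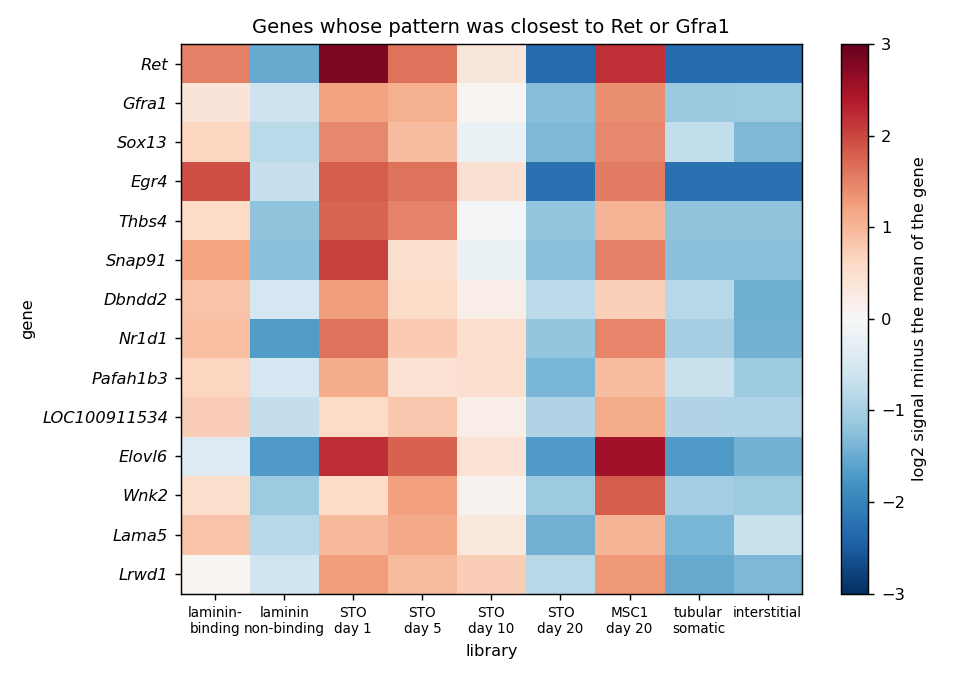
Log2 signal, raised to 50, of Ret, Gfra1 and the other genes closest to either, minus the mean of each gene over the 9 libraries, with red above and blue below the mean. Every gene shown is above its mean on STO day 1 and MSC1 day 20 and below it on STO day 20 and in both somatic libraries. The genes were chosen by correlation over these same libraries, so a shared pattern follows from the choice.

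Not all genes of undifferentiated spermatogonia followed the receptor pair. Nanos3, an RNA-binding protein gene of germ cells, read 326.3 on STO day 1, 21.6 on STO day 20 and 349.9 on MSC1. Of these 3 libraries it was lowest on STO day 20, as were both Ret and Gfra1. Sox3, a transcription factor gene, read 1567.3 in laminin-binding cells but 256.9, 172.3 and 144.4 on STO day 1, STO day 20 and MSC1, and Epcam, an adhesion gene, read 768.1, 2001.9 and 635.7. Over 11 such genes the median difference from the mean of each gene was 1.11 in laminin-binding cells, 0.51 on STO day 1, -0.31 on STO day 20 and 0.26 on MSC1, in log2.

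Among the ligands of the family, Gdnf itself was under the floor in all 9 libraries, with its highest signal of 45.8 in tubular somatic cells and 2.4 to 24.3 elsewhere. Nrtn, which encodes neurturin, the preferred ligand of GFRA2, was bright in germ cells. Its signal was 790.0 in laminin-binding and 103.9 in non-binding cells, 585.7, 687.7, 720.7 and 399.3 on STO days 1, 5, 10 and 20, 621.2 on MSC1, and 3.5 and 3.6 in the tubular and interstitial libraries. Nrtn was thus under the floor in the same somatic libraries as Ret and was called in the laminin comparison at 7.60-fold, but on STO day 20 it was still at 399.3, not called against 585.7 on day 1. Pspn, the gene of persephin, the ligand of GFRA4, read 61.9 to 155.6, and Gdf15 stayed under the floor in all libraries.

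Of the other co-receptors, Gfra2 read 450.2 on MSC1, 318.3, 312.2, 208.8 and 195.4 on STO days 1, 5, 10 and 20, 204.3 in laminin-binding, 90.5 in non-binding, 176.6 in interstitial and 64.3 in tubular somatic cells by its brighter probe set. Its order on feeders was that of the first Gfra1 probe set, over a smaller range, and Gfra2 was not called in either feeder comparison. Gfra3, read on type B, lay between 167.3 and 256.2 in germ cells (219.5 and 222.9 on STO days 1 and 20), and at 130.6 and 23.6 in the interstitial and tubular libraries. Gfra4, and Gas1, a GFRA-like protein that can bind RET, were under the floor in all 9 libraries, and Ncam1 and Sdc3, alternative GDNF receptors, reached at most 106.5 and 85.2.

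**Figure D5:**
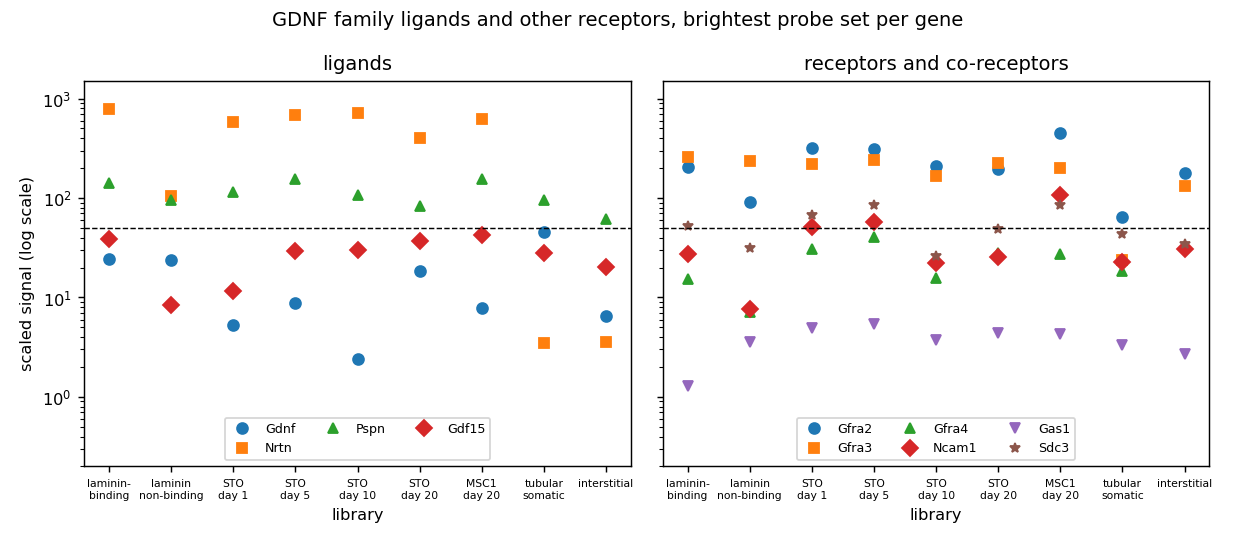
Scaled signal on a log axis of the GDNF family ligand genes (left) and of the other receptor and co-receptor genes (right) in the 9 libraries, each point being 1 array, with the floor of 50 dashed. Gdnf and Gdf15 stay under the floor, whereas Nrtn reads 103.9 to 790.0 in germ cells and 3.5 and 3.6 in somatic cells.

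Downstream of RET, of 14 measured adaptor genes, laminin-binding cells had more Shc1 (3.62-fold) and Dok1 (4.82-fold) and less Nck1 (3.13-fold) than unbound cells. Of 4 Src family kinase genes, Src (5.53-fold) and Fyn (3.20-fold) were higher and Yes1 (3.04-fold) lower, and of 7 PI3K-AKT genes Akt1 was 3.43-fold higher. None of 4 RAS-ERK genes and none of 6 genes of receptor turnover was called. Of 16 measured genes that GDNF is known to regulate in spermatogonia, 6 were higher and none lower, namely the transcription factor genes Egr4 (6.11-fold), Egr2 (5.08-fold), Etv4 (5.03-fold) and Bcl6b (3.21-fold), the ERK feedback inhibitor gene Spry2 (at least 5.50-fold) and the cyclin gene Ccnd2 (3.76-fold). These transcripts were not all particular to germ cells. Egr2 (839.2) and Spry2 (417.7) in interstitial cells exceeded laminin-binding cells (621.9 and 274.8). Ccnd2 read 416.3 in tubular somatic and 273.4 in laminin-binding cells. Egr4, Etv4 and Bcl6b read lower in both somatic libraries. Shc1, Dok1, Fyn and Akt1 also read higher in a somatic library than in laminin-binding cells, and Src did not. Over all pathway lists without Ret and Gfra1, 12 of 56 measured genes were called higher and 2 lower with a median log2 fold of 0.76, against 5.69% and 6.50% of 10977 genes and a median of 0.21 over all of them.

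From STO day 1 to day 20, 1 adaptor gene, Crk, rose 4.31-fold, and none of the Src family, PI3K-AKT, RAS-ERK and receptor turnover genes was called. Of 15 measured GDNF-regulated genes, 6 were lower and none higher, namely Egr4 (at least 16.4-fold), Pou3f1 (at least 5.78-fold), Mycn (at least 5.36-fold), Etv4 (3.58-fold), the ERK phosphatase gene Dusp6 (3.11-fold) and Bcl6b (3.10-fold). Of all pathway genes without Ret and Gfra1, 1 of 56 was higher and 6 were lower, with a median of -0.43, against 2.57% and 4.50% of 10867 genes and a median of -0.11. On MSC1 over STO day 20, 7 of 57 were higher and 2 lower, with a median of 0.57, against 4.15% and 3.16% of 11237 genes and a median of 0.23. These 7 were Egr4 (at least 13.8-fold), Etv4 (6.03-fold), Bcl6b (5.90-fold), the adaptor gene Dok5 (at least 5.10-fold), Src (4.32-fold), the receptor phosphatase gene Ptprf (3.78-fold) and Spry4 (3.17-fold), and the 2 lower ones were Crk (3.73-fold) and Yes1 (3.21-fold).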

How the data were processed

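Per the labels, 50 ng of total RNA per library went through 2 rounds of amplification, and the authors scaled each array to an average signal of 250. Each deposited value is a linear intensity of 1 probe set. The software and background step were not given in the sources used here, and detection calls were not used here. The number of arrays limits the precision.

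Probe sets were named from the platform annotation of GEO, with symbols updated through gene identifiers to GRCr8: on type A 12789 had 1 gene, 312 several and 2822 none, and on type B 7570, 100 and 7663. Control probe sets, 57 per type, were dropped, and 100 shared ones were counted on type A alone. For a gene with several probe sets the brightest (mean log2 signal) was taken, from type A first. The trend used limma 3.58.1 in R 4.3.3 (lmFit, eBayes with trend, Benjamini-Hochberg adjustment) and was tested on simulated data.

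The named genes are all probe sets of Ret and Gfra1, the measured ligands and receptors of the family, genes of the GDNF pathway lists called in a comparison, and the 8 genes with the highest correlation to either gene. Nanos3, Sox3, Epcam and the marker genes of other cell types were named after their values were seen. Members and lists were chosen with earlier results of these data known. Alternatives were floors of 25 and 100, other scalings, a fold of 2, a minimum of 100, other probe sets, and for the trend other filters, linear day and each day left out.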

Additional observations from a re-analysis of the deposited data

How the results depend on the processing

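Of 102 alternatives run on the 12 folds of Ret and Gfra1, 93 left call and direction as reported, 8 changed the call and 1 turned a direction, and the 36 with other scalings changed no call. The third Ret probe set gave log2 folds of 0.0 for laminin-binding over non-binding, tubular and interstitial cells and for MSC1 over STO, and -0.0454 for STO day 20 over day 1, all uncalled because it is near or under the floor. The second Gfra1 probe set gave -2.31 for STO day 20 over day 1 and 2.14 for MSC1 over STO, uncalled because its signal is under 250. With a fold of 2, Ret on STO day 1 over laminin-binding cells was called at 1.29. The second Ret probe set turned that fold to -0.14, uncalled in both. In the trend of the first probe sets, 4 alternatives passed 0.05 for Ret, with slopes of -0.27 (linear day), -1.97 (without day 1), -1.16 (without day 10) and -0.70 (without day 20), and 2 for Gfra1, at -0.14 (linear day) and -1.18 (without day 1), the cause of which was not tested. With a mean signal of at least 250 required, Gfra1 was not fitted. Probe sets called in the trend numbered 0 as reported, 1425 with linear day, 1814 without day 1, 15 without day 10 and 24 without day 20. In settings chosen after the data were seen, Gfra1 ranked 1 to 7 for Ret with other floors, scalings or a library left out (7 with a floor of 25, 18 over germ cells alone), and 20 to 39 with the second probe set of either or both genes. In the same settings Ret ranked 1 to 4 for Gfra1, 11 over germ cells alone, and 5 to 99 with the second probe set of either or both. No paired analysis was possible because each population has 1 library. Signals under the floor limit the folds of Ret against somatic cells and STO day 20 to bounds.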
